A study of Mus musculus with 3 samples.

Results

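Mir21a, Mir132 and Mir212 are microRNA hairpins known to rise in ovarian granulosa cells after gonadotropin, and their reads were followed through small RNA libraries of mouse oocytes. The 3 hairpins were taken by symbol from the 2201 microRNA hairpin genes of the GENCODE M21 annotation. A read was counted for a hairpin when the first 20 nt of its insert matched the hairpin in sense without a mismatch. All 3 hairpins had reads in the 19-24 nt window and in the 24-30 nt window, and 2 of the 3 had reads in the 19-30 nt window.

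The RNA came from fully grown oocytes, the large oocytes of the follicle before ovulation, of mice that had received 5 IU of PMSG, an FSH-like gonadotropin, 48 hours before they were killed. Total RNA was extracted with Trizol and cut from a polyacrylamide gel in windows of 19-24 nt, 24-30 nt and 19-30 nt, with 1 library per window, called by its window below, sequenced on an Illumina 1G instrument. All 3 libraries share the PMSG treatment, and no library of untreated mice was analysed here, so a response to gonadotropin was not compared. The number of mice or oocytes pooled is not known from the labels, and with no replicate library there is no test between windows.

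A microRNA hairpin is cut by Drosha and Dicer into a short duplex, and 1 strand, from the 5p or the 3p arm, is kept in an Argonaute protein. Bases 2 to 8 of that strand, the seed, pair with target messenger RNAs. In mouse granulosa cells miR-21 is induced by the ovulatory LH surge and protects the cells from apoptosis. The related miR-132 and miR-212 come from a shared cluster, are induced by LH in mouse granulosa cells and are best known as targets of CREB in neurons. In mouse oocytes microRNA activity is known to be weak, so that the endogenous siRNA pathway accounts for most Dicer-dependent silencing.

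The mature sequences are shown because the results turn on their seeds and on where reads start and end. They are the RefSeq sequences of GRCm38.p6, 5′ to 3′, with the seed in capitals.
miR-21a-5p: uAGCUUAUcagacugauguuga
miR-21a-3p: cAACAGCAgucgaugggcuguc
miR-132-5p: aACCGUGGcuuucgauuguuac
miR-132-3p: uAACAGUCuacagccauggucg
miR-212-5p: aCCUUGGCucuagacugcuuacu
miR-212-3p: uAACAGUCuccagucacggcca
The 3p products of Mir132 and Mir212 share the seed AACAGUC and their first 9 bases, and 17 of their 22 bases are the same. Each of the other products carries a seed of its own among these hairpins.

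All 3 hairpins lie on chromosome 11 (GRCm38). Mir21a lies on the minus strand at chr11:86584067-86584158, within an exon and annotated UTR of Vmp1, a protein-coding gene of the same strand that is known for its role in autophagy. Mir212 at chr11:75173388-75173478 and Mir132 at chr11:75173682-75173747 lie on the plus strand in an intron of the processed transcript 1700016P03Rik, with 203 bases between them. Every one of the 6229 reads of Mir21a, 44 of Mir132 and 14 of Mir212 had a single place among annotated transcripts, so no read was shared with another hairpin. The place of the Mir21a reads is also sense sequence of Vmp1. In no library was a read found antisense to any of the 3 hairpins.

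The 19-24 nt window held 764539 reads, the 24-30 nt window 1484509 and the 19-30 nt window 943811. Reads matching any microRNA hairpin numbered 248064 in the 19-24 nt window (36.3% of inserts of at least 18 nt), 25375 in the 24-30 nt window (1.78%) and 37023 in the 19-30 nt window (4.95%), and levels below are shares of these microRNA reads. Reads in the 19-24 and 24-30 nt windows are 26 nt long and those of the 19-30 nt window 36 nt, so window, library and sequencing run cannot be told apart. Intervals are 95% Wilson intervals for shares and conditional exact binomial intervals for ratios, and all cover counting error only.

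Mir21a was abundant in both libraries whose window includes its length. It gave 5386 reads in the 19-24 nt window, 68 in the 24-30 nt window and 775 in the 19-30 nt window. That was 2.17% of microRNA reads in the 19-24 nt window (2.11 to 2.23), 0.268% in the 24-30 nt window (0.211 to 0.340) and 2.09% in the 19-30 nt window (1.95 to 2.24). The intervals of the 19-24 and 19-30 nt windows overlap, and the 24-30 nt window was low. Among hairpins with reads, Mir21a ranked 5 of 887 in the 19-24 nt window, 56 of 729 in the 24-30 nt window and 12 of 755 in the 19-30 nt window. In these bulk RNA libraries, fewer cells of a type and less RNA per cell cannot be told apart.

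Mir132 was rare. It gave 36 reads in the 19-24 nt window, 2 in the 24-30 nt window and 6 in the 19-30 nt window. Its shares were 0.0145% in the 19-24 nt window (0.0105 to 0.0201), 0.00788% in the 24-30 nt window (0.00216 to 0.0287) and 0.0162% in the 19-30 nt window (0.00743 to 0.0354), and all 3 intervals overlap. The hairpin ranked 209 of 887 in the 19-24 nt window and 295 of 755 in the 19-30 nt window.

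Mir212 was rarer still, with 13 reads in the 19-24 nt window, 1 in the 24-30 nt window and 0 in the 19-30 nt window. This was 0.00524% of microRNA reads in the 19-24 nt window (0.00306 to 0.00897) and 0.00394% in the 24-30 nt window (0.000696 to 0.0223). The 0 of 37023 reads in the 19-30 nt window allows a share of up to 0.0104%, the upper limit of its interval. That limit is above the share in the 19-24 nt window, so a difference was not detectable at this depth.

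**Figure D1:**
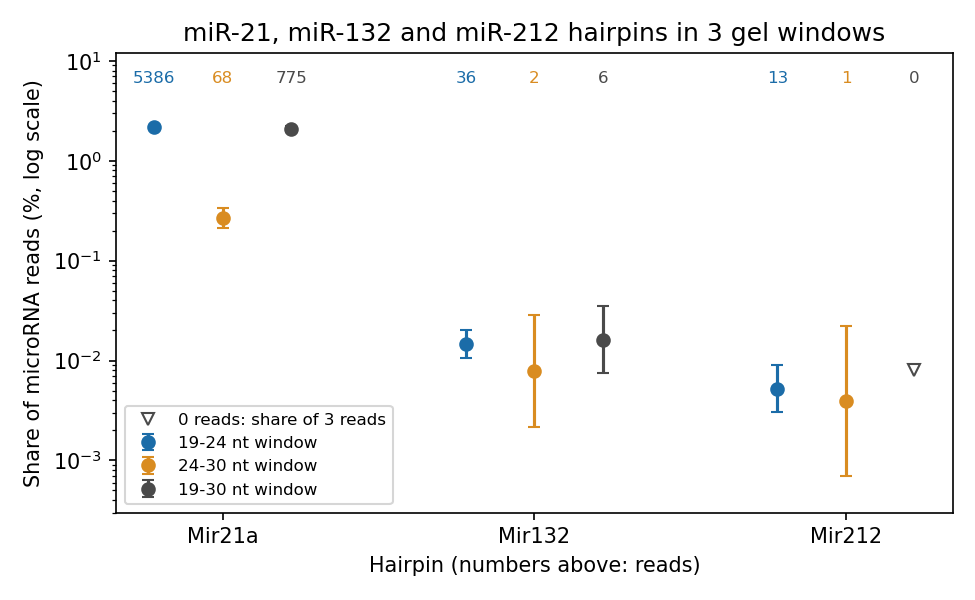
Share of microRNA reads (%, log scale) of each hairpin in the 19-24, 24-30 and 19-30 nt windows, with 95% Wilson intervals as bars, read counts printed above and an open triangle at the share of 3 reads where no read was found. Mir21a stands near 2% in the 19-24 and 19-30 nt windows and at 0.268% in the 24-30 nt window, and the intervals of Mir132 and Mir212 overlap across libraries.

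The order of levels was Mir21a, Mir132, Mir212 in each library. In the 19-24 nt window Mir21a had 149.6 times the reads of Mir132 (108 to 214) and 414 times those of Mir212 (242 to 779), and in the 19-30 nt window it had 129 times the reads of Mir132 (59.1 to 353). Within the shared cluster, Mir132 had 2.77 times the reads of Mir212 in the 19-24 nt window (1.43 to 5.69), beyond counting error. In the 24-30 nt window the order of Mir132 and Mir212 rests on 2 reads and 1 read.

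Set against the 19-30 nt window, the 19-24 nt window had a share of Mir21a whose ratio was 1.04 (0.962 to 1.12), with 1 inside the interval. In 3 other settings that count per microRNA read, the interval lay to 1 side of 1. The ratio was 0.883 (0.818 to 0.953) with single-hairpin reads only and 0.908 (0.837 to 0.986) without 36 nt reads that showed no linker. With inserts sized at 19 to 22 nt it was 1.21 (1.08 to 1.37). The ratio was 0.895 for Mir132 (0.374 to 2.60), whose interval spans a fall of more than 2-fold and a rise of more than 2-fold. No ratio could be given for Mir212. Per insert of at least 18 nt, rather than per microRNA read, the ratio was 7.61 for Mir21a (7.06 to 8.21) and 6.57 for Mir132 (2.74 to 19.1). With 36 nt reads that showed no linker left out of reads and inserts alike it was 5.30 (4.89 to 5.76) and 5.77 (2.07 to 22.3). All these intervals per insert lay above 1. Of the 387 hairpins with at least 10 reads over both libraries, 30.0% were at least 2-fold higher in the 19-24 nt window and 43.7% at least 2-fold lower, whereas Mir21a and Mir132 were called in neither direction, and the 0 reads of Mir212 in the 19-30 nt window decide nothing about it. The median ratio over the 387 hairpins was 0.748, and 56.8% of them had a lower ratio than Mir21a and 52.7% a lower one than Mir132.

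Against the 24-30 nt window, the share of Mir21a was 8.10 times as high in the 19-24 nt window (6.38 to 10.4). It was 165 times as high per insert of at least 18 nt and 3.43 times as high with inserts sized at 19 to 22 nt. The median over the 394 hairpins compared was 0.963, and 89.6% of them had a lower ratio than Mir21a. For Mir132 the ratio was 1.84 (0.474 to 15.8), with only 2 reads behind it in the 24-30 nt window, and for Mir212 it was 1.33 (0.200 to 56.5), with 1 read. Per insert of at least 18 nt these ratios were 37.6 (9.67 to 322) for Mir132 and 27.1 (4.08 to 1153) for Mir212. In this comparison 35.0% of hairpins were at least 2-fold higher in the 19-24 nt window, as was 1 of the 3 members, Mir21a, and 38.6% were at least 2-fold lower, as were 0 members.

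The other microRNAs reported as changed by gonadotropin in granulosa cells or follicles were mostly higher in the 19-24 than in the 19-30 nt window. Of the 15 listed, 14 were found in the annotation by symbol and 12 had at least 10 reads over the 19-24 and 19-30 nt windows. Mir92a-1 was not found. The annotation holds a Mir92-1, lower in the 19-24 nt window at 0.143%, against 0.421% in the 19-30 nt window (ratio 0.339). It is not in the counts or sums of the list. Of the 12, 10 were at least 2-fold higher in the 19-24 nt window, against 30.0% of all hairpins. At least 2-fold lower was 1, against 43.7%. All hairpins here include those that share their reads with others. With single-hairpin reads only, 87 of 246 hairpins were at least 2-fold higher and 74 at least 2-fold lower, and the list was not recounted in that setting. Mir503, of the miR-16 family, gave 2.23% of microRNA reads in the 19-24 nt window and 0.132% in the 19-30 nt window, a ratio of 16.9. Mir34a, a p53 target, was 16.5 times as high and Mir99b 11.7 times as high. Of the 12, only Mir31 was at least 2-fold lower, with 0.0411% in the 19-24 nt window and 0.602% in the 19-30 nt window. Mir320 was near equal with a ratio of 0.927. Summed over the list, the share of microRNA reads was 8.16% in the 19-24 nt window and 2.33% in the 19-30 nt window (ratio 3.50, 3.27 to 3.75), with a median ratio of 4.13 over these 12 members, against 0.748 over all hairpins compared. Mir224 had 2 reads in the 19-24 nt window, 0 in the 24-30 nt window and 1 in the 19-30 nt window, and Mir383 had 0 in all 3.

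Hairpins listed as markers of other cells differed between the same libraries. These lists and the gonadotropin list were written with earlier results of these data known. The counts therefore describe the lists chosen and were not a test of cell type. Of the granulosa and stroma list, 11 of 11 hairpins were at least 2-fold higher in the 19-24 nt window, against 30.0% of all hairpins. Its summed share was 8.05% there and 0.956% in the 19-30 nt window (ratio 8.42, 7.58 to 9.38). The blood list was at least 2-fold higher in 5 of 5, against the same 30.0%. Of these, Mir142 was called with its 0 reads in the 19-30 nt window raised to 3 (ratio 3.18). The summed share of the blood list was 1.53% in the 19-24 nt window and 0.107% in the 19-30 nt window (14.3, 10.4 to 19.9). Mir451a, a microRNA of red blood cells, had 3108 reads in the 19-24 nt window and 10 in the 19-30 nt window. Of the germ cell and early embryo list, 19 of 19 hairpins with at least 10 reads were at least 2-fold lower, against 43.7% of all hairpins. Its summed share was 0.376% in the 19-24 nt window and 8.02% in the 19-30 nt window (0.0469, 0.0435 to 0.0505). The count holds for the hairpins listed. Mir201 and Mir547, left out of the list, were 12.7 and 21.4 times as high in the 19-24 nt window. Mir471, Mir742 and Mir878, also left out, had ratios of 0.0341, 0.0332 and 0.0373. The label names oocytes for all 3 libraries. In the 19-24 nt window the germ cell and early embryo list held a smaller summed share than the granulosa and stroma list, and in the 19-30 nt window a larger one. In the 24-30 nt window the summed shares were 0.0828% for the germ cell and early embryo list, 1.40% for the granulosa and stroma list and 0.686% for the blood list. At 0 were Mir142 in the 19-30 nt window and, in the 24-30 nt window, Mir142, Mir144, Mir10a and 12 of 21 hairpins of the germ cell and early embryo list. None of these lists holds Mir21a, Mir132 or Mir212, 4 hairpins (Mir503, Mir143, Mir145a and Mir126a) stand in both the gonadotropin list and the granulosa and stroma list, and their part in the levels above was not tested.

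**Figure D2:**
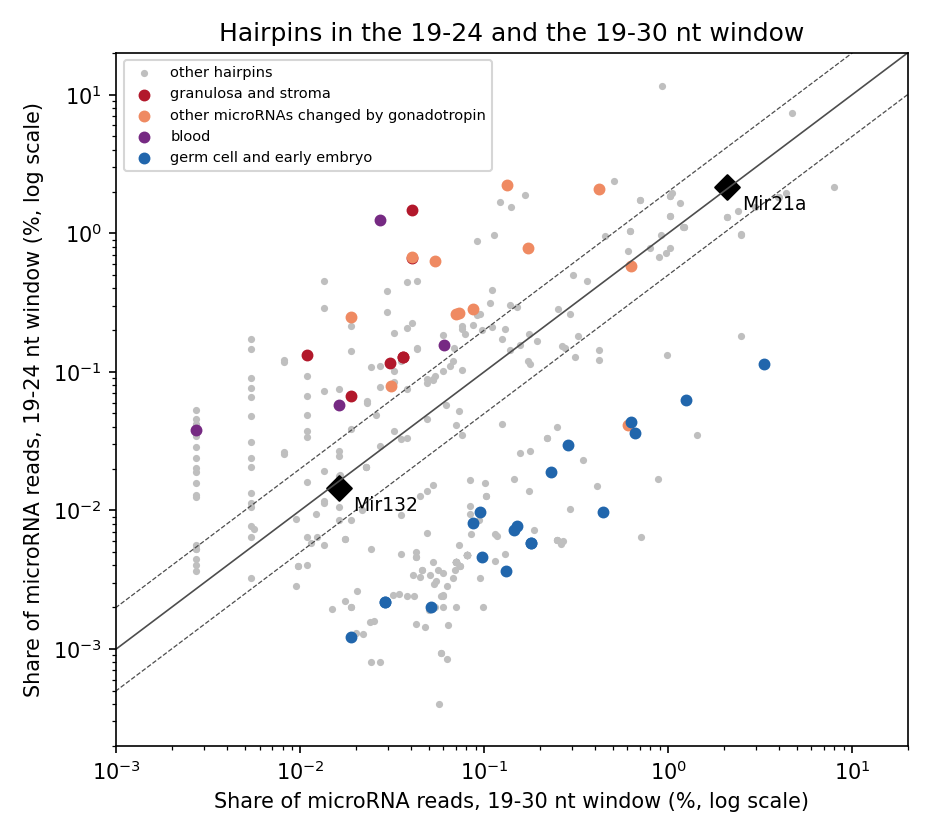
Share of microRNA reads (%, log scales) in the 19-24 nt window (y axis) against the 19-30 nt window (x axis) for hairpins with reads in both and at least 10 in all, with equal shares on the solid line and 2-fold differences on the dashed lines. Mir21a and Mir132 (diamonds) lie between the dashed lines, granulosa, stroma and blood hairpins above them and germ cell and early embryo hairpins below them; a hairpin of both the gonadotropin list and the granulosa and stroma list has the colour of the first.

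By the distance between log2 shares over the 3 libraries, among 333 hairpins with at least 30 reads, those most like Mir21a were Mirlet7f-2 and Mirlet7f-1 (distance 0.77 each) and Mirlet7i (1.00). Reads matching both Mirlet7f hairpins were divided between them, and each stood at 770.5 reads in the 19-30 nt window. The distance of their summed level was not computed. Mirlet7i gave 1.54% of microRNA reads in the 19-24 nt window, 0.437% in the 24-30 nt window and 2.97% in the 19-30 nt window. The nearest to Mir132 were Mir200b (0.29), Mir700 (0.41) and Mir146b (0.45), and the nearest to Mir212 were Mir350 (1.11), Mir874 (1.25) and Mir150 (1.30). Counts under 3 were raised to 3 for the distance. Mir132, Mir212 and all these neighbours were below 3 in the 24-30 nt window. Mir212 and its neighbours were also below 3 in the 19-30 nt window, so their distances rest on the 19-24 nt window alone. With 14 reads in all, Mir212 itself was below the 30 reads asked of a neighbour. Each of these neighbours of Mir132 and Mir212 had at most 44 reads in any library.

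Almost all Mir21a reads came from the 5p arm, the known guide strand. The 5p arm gave 5358 of 5386 reads in the 19-24 nt window (99.5%), 66 of 68 in the 24-30 nt window (97.1%) and 761 of 775 in the 19-30 nt window (98.2%). The 3p arm gave 28 reads in the 19-24 nt window, 2 in the 24-30 nt window and 14 in the 19-30 nt window. Its share of Mir21a reads was 0.520% in the 19-24 nt window (0.360 to 0.750) and 1.81% in the 19-30 nt window (1.08 to 3.01), a ratio of 0.288 (0.147 to 0.591), so the 3p arm was less frequent in the 19-24 nt window beyond counting error. Over hairpins with at least 100 reads, the median share of the arm with fewer reads was 1.27% in the 19-24 nt window (116 hairpins) and 0.362% in the 19-30 nt window (38 hairpins). The share of Mir21a thus lay below the median in the 19-24 nt window and above it in the 19-30 nt window.

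The cluster mates divided their reads differently between arms. Mir132 gave 27 reads from the 3p arm and 9 from the 5p arm in the 19-24 nt window, 2 and 0 in the 24-30 nt window and 6 and 0 in the 19-30 nt window. Over all libraries its 3p arm held 35 of 44 reads (79.5%, 65.5 to 88.8). Mir212 gave 4 reads from the 3p arm and 9 from the 5p arm in the 19-24 nt window, and its single read of the 24-30 nt window came from the 3p arm. Over all libraries its 3p arm held 5 of 14 reads (35.7%, 16.3 to 61.2), an interval that includes an even split and lies below that of Mir132. Among inserts sized at 19 to 22 nt the 3p arm held 4 of 12 reads of Mir132 and 0 of 4 of Mir212, so the leading arm of Mir132 depends on counting longer and unsized inserts.

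Reads of Mir21a began at a precise base. At the annotated start of miR-21a-5p, base 18 of the hairpin, began 5321 of 5358 5p reads in the 19-24 nt window (99.3%), 66 of 66 in the 24-30 nt window and 753 of 761 in the 19-30 nt window (98.9%). The next most frequent start was 1 base upstream, with 30 reads in the 19-24 nt window and 4 in the 19-30 nt window, which moves the seed by 1 base. The leading start of the leading arm held a median of 99.0% of reads over 116 hairpins in the 19-24 nt window and 99.2% over 38 hairpins in the 19-30 nt window, close to the values of Mir21a. Of the 3p reads, 25 of 28 in the 19-24 nt window, 1 of 2 in the 24-30 nt window and 14 of 14 in the 19-30 nt window began at the annotated start of miR-21a-3p.

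The 5p reads of Mir132 all began away from the annotated base. All 9, each in the 19-24 nt window, began 1 base after the RefSeq start, at base 6 of the hairpin rather than base 5. The hairpin is shown with both annotated products in capitals, and below it the most frequent insert of those reads.
Mir132 hairpin: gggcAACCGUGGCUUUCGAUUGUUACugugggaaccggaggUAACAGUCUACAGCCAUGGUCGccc
Mir132 5p insert: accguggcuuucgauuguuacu
That insert was found in 3 reads. Of the 9 reads, 7 had an insert of 22 nt, 1 of them by 3 of 4 linker bases, 1 had 21 nt and 1 had 20 nt. No read therefore carried the annotated seed ACCGUGG of miR-132-5p at bases 2 to 8.

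Starts of the 3p arm of Mir132 and of both arms of Mir212 followed the annotation more closely. For miR-132-3p they were 27 of 27 in the 19-24 nt window, 2 of 2 in the 24-30 nt window and 4 of 6 in the 19-30 nt window, where the other 2 began 1 and 2 bases later. For miR-212-3p they were 4 of 4 in the 19-24 nt window and 1 of 1 in the 24-30 nt window, and for miR-212-5p 8 of 9 in the 19-24 nt window.

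**Figure D3:**
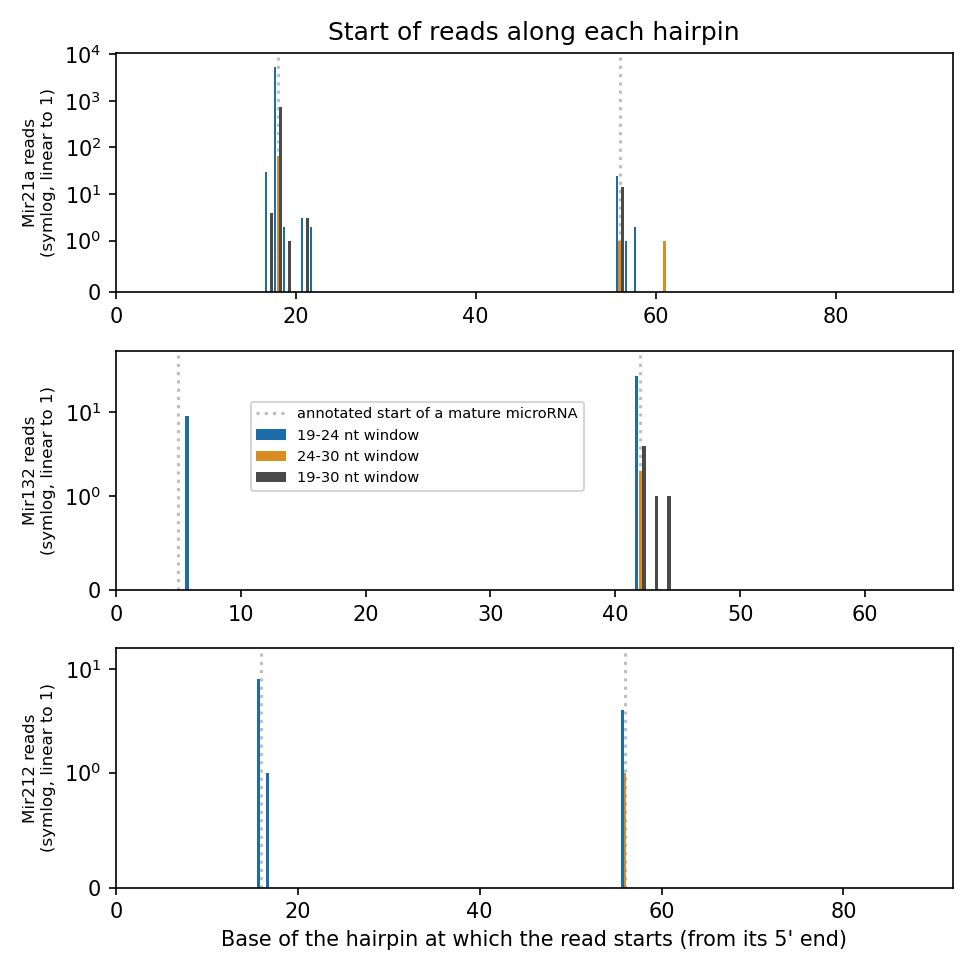
Number of reads (symlog axis, linear to 1) by the base of the hairpin at which they start, for Mir21a, Mir132 and Mir212 in the 19-24, 24-30 and 19-30 nt windows, with dotted lines at annotated starts of mature products. Reads of Mir21a pile up at base 18, and the 9 5p reads of Mir132 stand 1 base to the right of the annotated start.

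Counted by seed, the shared seed AACAGUC of miR-132-3p and miR-212-3p had 31 reads in the 19-24 nt window, 27 from Mir132 and 4 from Mir212. It had 3 reads in the 24-30 nt window, 2 from Mir132 and 1 from Mir212, and 4 reads in the 19-30 nt window, all from Mir132. In shares of microRNA reads this was 0.0125% in the 19-24 nt window (0.00880 to 0.0177), 0.0118% in the 24-30 nt window (0.00402 to 0.0348) and 0.0108% in the 19-30 nt window (0.00420 to 0.0278), with no difference beyond counting error. All microRNA reads with the seed AGCUUAU in that position came from Mir21a, with 2.15% of microRNA reads in the 19-24 nt window, 0.260% in the 24-30 nt window and 2.03% in the 19-30 nt window.

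The 3′ end of miR-21a-5p was read best in the 19-30 nt window, whose 36 nt reads run through the insert into the linker. Of the 753 reads at the annotated start, 635 were sized by the linker. Among these, 285 were 22 nt long (44.9%, 41.1 to 48.8) and 295 were 23 nt long (46.5%, 42.6 to 50.3), with 29 at 21 nt and 24 at 24 nt. The most frequent inserts, shown because they differ only at the 3′ end, follow the hairpin base by base, except for the capitals, which mark bases from the first difference on.
21 nt, 29 reads: uagcuuaucagacugauguug
22 nt, 253 reads: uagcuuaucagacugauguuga
23 nt, 247 reads: uagcuuaucagacugauguugac
23 nt, 23 reads: uagcuuaucagacugauguugCC
24 nt, 15 reads: uagcuuaucagacugauguugacu
The 23 nt product, 1 templated C longer than the RefSeq sequence, was thus as frequent as the annotated 22 nt product within counting error. Over all 27259 sized microRNA reads of that library, 40.8% were 22 nt and 30.6% 23 nt long, so miR-21a-5p had more of its reads at 23 nt than microRNA reads as a whole.

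In the 26 nt reads of the other libraries a 22 nt insert leaves 4 linker bases and a 23 nt insert 3. A read was taken as 22 nt when at least 3 of those 4 bases matched, and as 23 nt only when all 3 did. Of the 5321 reads in the 19-24 nt window, 3216 were taken as 22 nt (60.4%), 1222 as 23 nt and 376 as 21 nt (7.07%), and in 486 no linker was found. Of the 66 reads in the 24-30 nt window, 39 were taken as 22 nt and 20 as 23 nt. Of the 22 nt reads in the 19-24 nt window, 2551 showed all 4 linker bases and 665 showed 3. In the 24-30 nt window these were 33 and 6. The ratio of 23 nt to 22 nt reads was 0.380 in the 19-24 nt window (0.355 to 0.406), 0.513 in the 24-30 nt window (0.283 to 0.901) and 1.04 in the 19-30 nt window (0.877 to 1.22). By these calls the 19-24 nt window had fewer 23 nt reads for each 22 nt read than the 19-30 nt window, beyond counting error. The parts of the read length and of the unequal rules for 22 and 23 nt in this difference were not tested. The 4 hairpin bases after miR-21a-5p, CUGU, equal the first 4 linker bases, so in 26 nt reads a 22 nt insert cannot be told apart from an insert of 26 nt or longer that follows the hairpin. In the 19-30 nt window 0 of 635 sized reads were of that kind. An insert of 24 nt or longer that follows the hairpin also shows at least 3 of these 4 bases. Such inserts can therefore be among the reads taken as 22 nt by 3 of 4 linker bases. Of the 635 sized reads in the 19-30 nt window, 24 were 24 nt long.

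**Figure D4:**
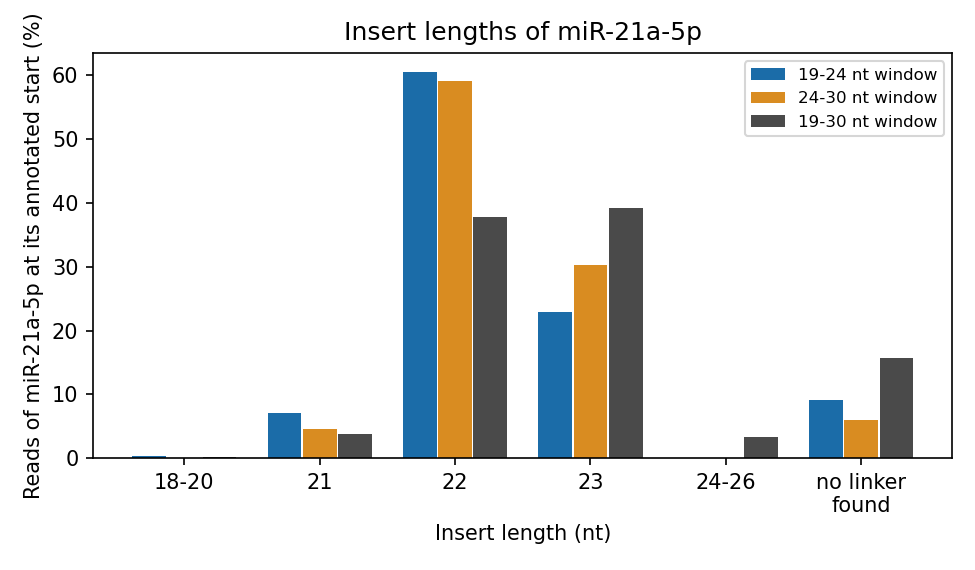
Share (%) of miR-21a-5p reads at the annotated start by insert length (nt) in the 19-24, 24-30 and 19-30 nt windows; reads of 22 and 23 nt in the windows with 26 nt reads include those recognised by 3 linker bases. In the 19-24 nt window 22 nt leads with 60.4%, and in the 19-30 nt window 22 and 23 nt hold 37.8% and 39.2%.

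For Mir132 and Mir212 few lengths could be read. Of the 27 miR-132-3p reads in the 19-24 nt window, 5 were taken as 22 nt and 7 as 23 nt, and in 15 no linker was found. In the 19-30 nt window 1 was 23 nt and 1 was 26 nt long. Of the 8 miR-212-5p reads in the 19-24 nt window, 3 were 21 nt, 1 was 22 nt and 1 was taken as 23 nt, the annotated length. At base 23, counted from 1 at the 5′ end of the mature product and named as hairpin base, position, called base, the 7 miR-132-3p reads of the 19-24 nt window had C23T in 4 and C23G in 3, and 0 of them had the hairpin base. In the 19-30 nt window 2 of 2 had C23T. The same change stood in the only miR-212-3p read of 23 nt, in the 19-24 nt window. At this base of miR-21a-5p, C23T was seen in 2.86% of 1222 reads of the 19-24 nt window and in 1.25% of 320 reads of the 19-30 nt window. The 23 nt insert of miR-132-3p, with the base that differs in capitals, was found once, in the 19-30 nt window.
miR-132-3p with 3′ U: uaacagucuacagccauggucgU
Whether these bases were added to the RNA or miscalled was not tested.

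Base calls of miR-21a-5p were poor at cycle 21 in the windows with 26 nt reads. The hairpin base G was called in 27.6% of reads of the 19-24 nt window, 3.03% of the 24-30 nt window and 97.3% of the 19-30 nt window, and G21T was seen in 52.9% of reads in the 19-24 nt window, 86.4% in the 24-30 nt window and 2.53% in the 19-30 nt window. The median quality at that cycle was 7 in the 19-24 nt window, 10 in the 24-30 nt window and 39 in the 19-30 nt window, against 40 at cycle 20 in all 3. At cycles 22 and 23 the median was 17 and 24 in the 19-24 nt window and 27.5 and 40 in the 24-30 nt window. In the 19-30 nt window the low point was cycle 22, with a median of 11, and A22C was seen in 6.94% of 605 sized reads there. Matching on the first 20 nt leaves these cycles out of the counts, though not out of the lengths and 3′ base calls above.

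Reads of miR-21a-5p with 1 mismatch in the first 20 nt are not in the counts above. They numbered 776 in the 19-24 nt window (12.7% of perfect and mismatched reads together), 3 in the 24-30 nt window and 187 in the 19-30 nt window (19.9%). In the 19-30 nt window 76.5% of them were A-to-C changes, led by A16C with 76 reads and A12C with 43, and in the 19-24 nt window 27.4% were, led by A16C with 116 of the 776. A-to-G changes, the kind that adenosine deaminases leave in RNA, made up 6.83% of mismatched reads in the 19-24 nt window and 3.21% in the 19-30 nt window.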

How the data were processed

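Small RNA of mouse oocytes was sequenced in 3 libraries, 1 per gel window, per the labels. The deposited text holds a unit classed as other, raw reads with base qualities that still carry the 3′ linker, and all counts were made here. The bases of the linker were taken from the reads. Software and filters used upstream by the authors are not given in the sources used here. Linkers were removed at its earliest position with an overlap of at least 4 called bases in 26 nt reads or 6 in 36 nt reads and up to 20% mismatches. Inserts of at least 18 nt without an uncalled base among the first 18 were compared with 2202 GENCODE M21 microRNA transcripts. The first 20 nt had to match in sense (the whole insert at 18 or 19 nt), and several matches were weighted by 1 over their number. A 26 nt read without a linker was kept. A 36 nt read without one was kept too, among inserts and, when it matched a hairpin, among microRNA reads, since 26.4% of the microRNA reads of the 19-30 nt library were of this kind, a choice made after the data were seen. Trimming, sizing and ratios were tested on simulated reads with inserts of 20 to 22 nt. Longer inserts and lengths taken from 3 linker bases were not simulated. A hairpin was called when shares differed at least 2-fold, with a count of 0 raised to 3. With 1 library per window there is no test. The members, the lists, from general knowledge, and the alternatives were chosen with earlier results of these data known. All members are named, with the 3 hairpins nearest to each and list members the results turn on. Python 3.11.15, numpy 2.4.6, scipy 1.17.1 and matplotlib 3.10.9 were used.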

Additional observations from a re-analysis of the deposited data

How the results depend on the processing

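Each ratio was recomputed under 8 other settings where they applied and 4 more chosen after seeing the data. The Mir21a ratio of the 19-24 to the 19-30 nt window stayed within 1.5 times of 1.04 under every setting but those per usable insert. It was 0.883 with reads of a single hairpin only, 0.956 per read of hairpins with a Mir or Mirlet symbol, 0.908 without those 36 nt reads that showed no linker and 1.21 with inserts sized at 19 to 22 nt, so its side of 1 depends on these choices. Per insert of at least 18 nt, 36 nt reads without a linker included, it was 7.61, and the Mir132 ratio 6.57. With those reads left out of reads and inserts alike, it was 5.30 and the Mir132 ratio 5.77. Against the 24-30 nt window, where no such reads are left out, Mir21a had 165, Mir132 37.6 and Mir212 27.1 per usable insert by either count, and Mir21a had 3.43 with inserts sized at 19 to 22 nt. No value could be given for Mir212 against the 19-30 nt window under any setting, or for Mir132 and Mir212 against the 24-30 nt window with sized inserts, which left 0 reads there.

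The number of hairpins compared changed with the setting. In the 19-24 over 19-30 nt comparison, 116 of 387 hairpins were at least 2-fold higher, against 240 of 387 per usable insert. With 36 nt reads without a linker left out too, it was 232 of 378. At least 2-fold lower were 169 of 387, against 275 of 527 with 1 mismatch allowed and 74 of 246 with single-hairpin reads. Per usable insert it was 100 of 387, and 111 of 378 with those 36 nt reads left out too. In the 19-24 over 24-30 nt comparison 138 of 394 were higher, against 317 of 394 per usable insert. There 152 of 394 were lower, against 59 of 241 with single-hairpin reads and 37 of 394 per usable insert. It was 54 of 228 with sized inserts, 79 of 317 with reads weighted over all annotated transcripts and 63 of 253 with at least 30 reads. With sized inserts, 4 of 12 Mir132 reads came from the 3p arm. The causes of these shifts were not tested. Depth limits Mir132 and Mir212, which rest on 44 and 14 reads in all. No paired analysis was possible because each window has 1 library, and for the same reason no replicate could be left out.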
